A study of Mus musculus with 2 samples.

Results

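The 7 arginine metabolism genes Arg1, Arg2, Nos2, Slc7a1, Slc7a2, Odc1 and Ass1 were described in immune cells that had entered mouse tumours. They were taken by their symbols from the 47730 features measured, and each symbol matched 1 feature. RNA of single cells was read in droplets from the 3′ end, with a unique molecular identifier (UMI) on each captured RNA molecule. The cells were alive and had been sorted by flow cytometry for CD45, which white blood cells carry on their surface. The E2 library came from C57BL6\J mice that were ovariectomised and given E2, the usual abbreviation of estradiol, and the placebo library from mice of that strain that were ovariectomised and given placebo. All mice had therefore lost the ovarian source of estrogen, and the comparison asks how tumour-infiltrating immune cells differ when estradiol is given back. The sources used here name neither the tumour type nor the age and number of mice, the E2 dose or its duration.

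Arginine enters a cell through the cationic amino acid transporters encoded by Slc7a1 and Slc7a2. Inside, arginase 1 in the cytosol (Arg1) and arginase 2 in mitochondria (Arg2) split it into urea and ornithine, while inducible nitric oxide synthase (Nos2) turns it into nitric oxide and citrulline. Ornithine decarboxylase (Odc1) takes ornithine into polyamines, and argininosuccinate synthase (Ass1) starts the remaking of arginine from citrulline. In tumours, arginase 1 of myeloid cells is known for using up the extracellular arginine that T cells need to divide.

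The E2 library held 5791 barcodes with 52628133 UMIs, and the placebo library held 3505 barcodes with 24545595 UMIs. After filtering, 5499 E2 and 3393 placebo cells remained, with medians of 7908 and 5088 UMIs. Cells were placed in a class by marker gates of 8 genes each, none of them one of the 7 genes, and 93.5% of E2 and 89.5% of placebo cells were placed. The labelled CD45+ sort held 101 E2 and 23 placebo cells that passed the fibroblast gate. Of the barcode sequences, 95 occurred in both libraries. Each group had 1 library, so the spread between mice could not be estimated and no test was made. The 95% intervals below cover counting error only, and a difference between libraries cannot be told apart from a difference between the treatments. The intervals of levels and ratios count each UMI as independent. They are therefore too narrow where few cells hold most of the UMIs.

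Most Arg1 UMIs lay in 1 class of cells. Monocytes, the blood-borne precursors, and macrophages, which they become in tissue, were kept as 1 class of 2352 E2 and 963 placebo cells, and this class held 91.3% of the Arg1 UMIs of the E2 library and 90.6% of those of the placebo library. Arg1 stood at 86.8 CPM (UMIs per 1000000 UMIs of the class) in the E2 class, with an interval of 83.1 to 90.5, against 625 CPM in the placebo class, with an interval of 609 to 641. These are 2113 and 5751 UMIs, so the level was 7.20-fold lower in the E2 library (6.85 to 7.58). The class made up 42.8% of E2 cells and 28.4% of placebo cells, and its median depth was close, 9640 UMIs in E2 and 9261 in placebo.

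The other 6 genes were also lower in monocytes and macrophages of the E2 library. The factors of Ass1, Slc7a2, Odc1, Slc7a1 and Arg2 were smaller than that of Arg1. Nos2 was 5.77-fold lower (2.72 to 13.1), from 11 E2 and 24 placebo UMIs, and this interval contains the factor of Arg1. Ass1 had 22.2 CPM in E2 and 70.1 CPM in placebo, 3.16-fold lower (2.82 to 3.55). Slc7a2, the transporter best known from activated macrophages, had 21.2 CPM in E2 and 56.4 CPM in placebo, 2.66-fold lower (2.35 to 3.01). Odc1 had 38.6 CPM in E2 and 59.1 CPM in placebo, 1.53-fold lower (1.38 to 1.70). The remaining transporter and the mitochondrial arginase differed least. Slc7a1 had 17.6 CPM in E2 and 25.4 CPM in placebo, 1.44-fold lower (1.23 to 1.70), and Arg2 had 12.6 CPM in E2 and 17.8 CPM in placebo, 1.41-fold lower (1.16 to 1.72). When classes were taken from clusters each named from 1 marker list, which left a cluster rich in Arg1 without a name, the log2 ratio was 0.83 for Slc7a2 and 0.20 for Arg2, so both turned.

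A gene was called when log2((CPM E2 + 10)/(CPM placebo + 10)) passed 1.5-fold and the gene had at least 20 UMIs over both libraries. The added 10 CPM understate the ratio of low genes. By this rule 3 of the 7 genes were called lower in E2, namely Arg1, Slc7a2 and Ass1, and 0 were called higher. Of all 13157 genes tested in the class, 1.23% were called lower and 0.828% higher. The median log2 value was -0.51 over the 7 genes and -0.03 over all genes tested. All 7 genes lay below 0 on this scale.

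**Figure D1:**
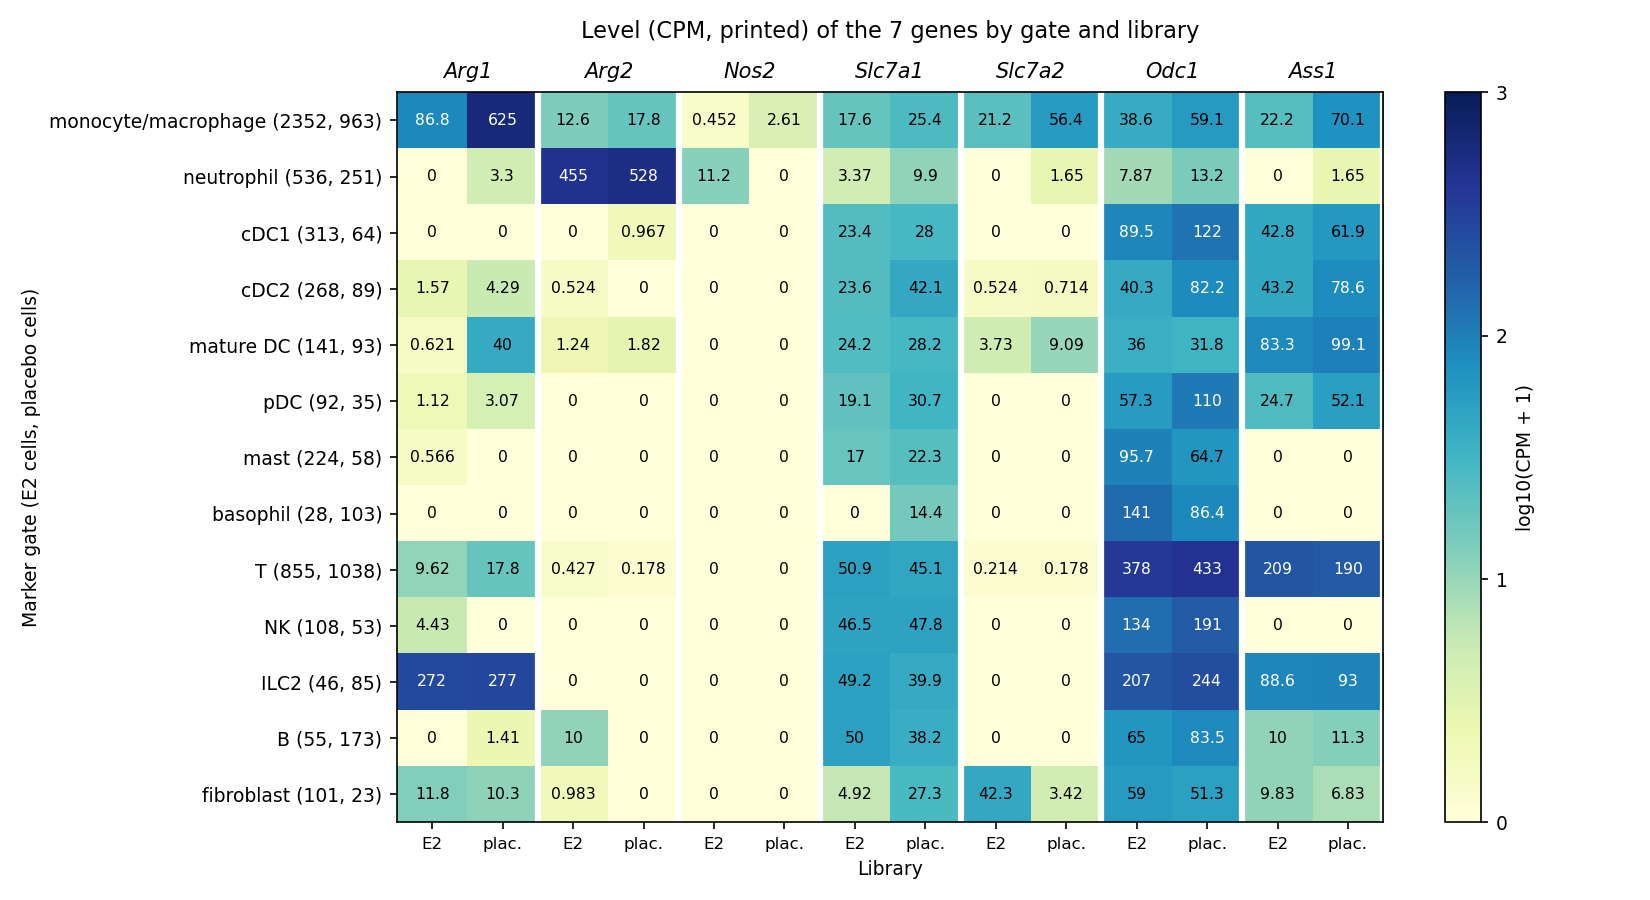
Level of each gene in CPM, printed and shaded on a log10 scale, for 13 marker gates (rows, with E2 and then placebo cell numbers) and the 2 libraries (columns, E2 left of placebo). Arg1 is dark in the monocyte/macrophage and ILC2 rows, Arg2 in the neutrophil row, and Odc1 and Ass1 in the T row.

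Within the class, Arg1 was carried by a minority of cells, and both their share of the class and their mean content were lower in E2. An Arg1 UMI was found in 270 of 2352 E2 cells (11.5%) and in 244 of 963 placebo cells (25.3%). After each cell was thinned to 2000 UMIs, which left out 97 E2 and 53 placebo cells, the share was 5.68% in E2 (4.76% to 6.71%) and 18.1% in placebo (15.7% to 20.8%). Neutrophils and cDC1, an antigen-presenting dendritic cell, had an Arg1 UMI in 0 of 496 and 0 of 304 thinned E2 cells and in 0 of 183 and 0 of 64 thinned placebo cells, so stray Arg1 RNA did not show in these cells at this depth. Before thinning, the median depth was 3093.5 UMIs in E2 and 2390 in placebo neutrophils and 16761 in E2 and 16682.5 in placebo cDC1.

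The cells that did carry Arg1 held 7.83 UMIs on average in E2 and 23.6 in placebo. The highest cell had 96 UMIs in E2 and 247 in placebo. Cells with 32 or more Arg1 UMIs numbered 18 in E2 (0.765%) and 47 in placebo (4.88%), whereas cells with exactly 1 UMI were about as frequent, 4.97% in E2 (4.13% to 5.93%) and 5.19% in placebo (3.88% to 6.79%). The 50 highest cells held 73.5% of the UMIs of the E2 class and 74.5% of those of the placebo class, so the summed level rests on few cells in both libraries.

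**Figure D2:**
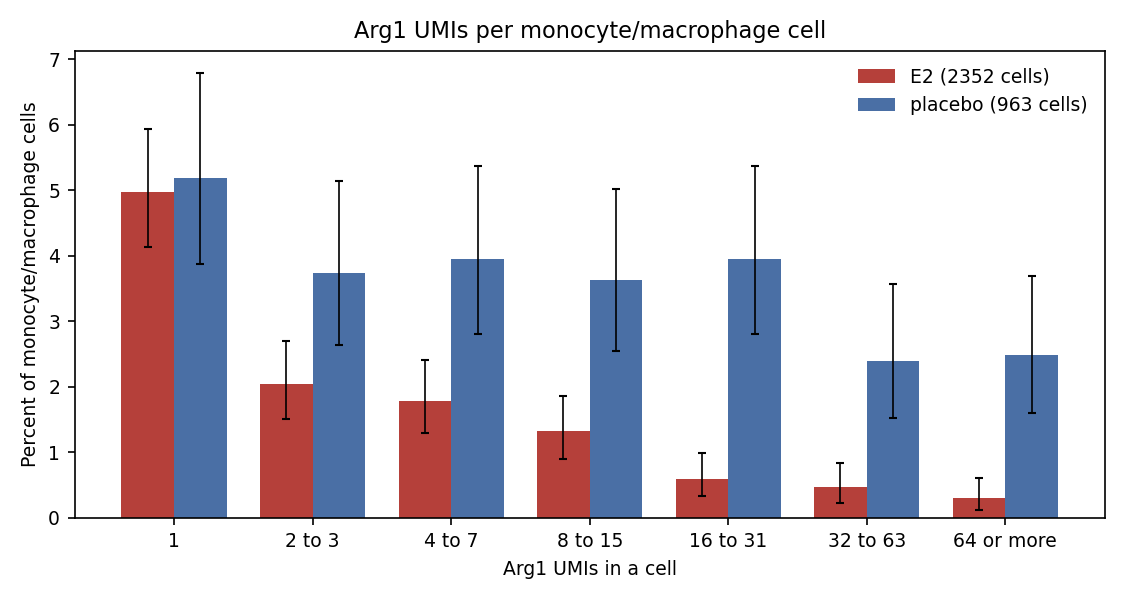
Percent of monocyte/macrophage cells (y) by the number of Arg1 UMIs in the cell (x), E2 bars left of placebo bars, with exact binomial 95% intervals and cells at 0 left out. The bars are close at 1 UMI (4.97% in E2 and 5.19% in placebo), and the E2 bar is lower at 2 to 3 UMIs (2.04% in E2 and 3.74% in placebo) and in every bin above.

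The difference was present in both parts of the class. In cells nearer the monocyte markers (929 E2 and 437 placebo cells), Arg1 had 101 CPM in E2 and 967 CPM in placebo. In cells nearer the macrophage markers (1168 E2 and 399 placebo cells), it had 76.7 CPM in E2 and 290 CPM in placebo. The counting intervals of the ratio did not overlap, 0.0974 to 0.112 nearer the monocyte markers and 0.243 to 0.288 nearer the macrophage markers. They leave out the spread between cells. In the larger cluster named monocyte (602 E2 and 213 placebo cells), Arg1 had 11.6 CPM in E2 and 30.4 CPM in placebo. These are 68 and 63 UMIs, against 940 and 4022 UMIs nearer the monocyte markers, so most of the latter lay outside that cluster. Ass1 followed the same order as Arg1 between the parts. It had 30.2 CPM in E2 and 106 CPM in placebo nearer the monocyte markers, and 16.1 CPM in E2 and 37.1 CPM in placebo nearer the macrophage markers. Within the class Arg2 lay mainly in cells nearer the monocyte markers, at 23.8 CPM in E2 and 31 CPM in placebo. Nearer the macrophage markers it had 4.42 CPM in E2 and 3.96 CPM in placebo.

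Groups of marker genes inside the class separated cells with a large Arg1 difference from cells with little. Cells with markers of the Mmp12 group, named for macrophage elastase, numbered 68 in each library and had 175 CPM of Arg1 in E2 and 1967 CPM in placebo, 11.3-fold lower (9.69 to 13.2). These UMIs came from 22 E2 and 41 placebo cells. Cells of the Ly6c2 group, which hold at least 2 of 6 markers of inflammatory monocytes, numbered 1257 in E2 and 585 in placebo. They had 100 CPM of Arg1 in E2 and 559 CPM in placebo, 5.58-fold lower (5.23 to 5.96). Cells of the Pf4 group, which share genes with tissue-resident macrophages, numbered 537 in E2 and 111 in placebo. They had 51.9 CPM of Arg1 in E2 and 60.4 CPM in placebo, a ratio of 0.86 whose interval, 0.64 to 1.18, contains 1. Cells of the Ace group, the patrolling monocytes, had 0 Arg1 UMIs in 116 E2 cells, which allows up to 3.45 CPM, and 32 UMIs in 2 of 43 placebo cells. The clusters named macrophage did not all go the same way. In 1 of them (213 E2 and 79 placebo cells), Arg1 was higher in E2. It had 64.4 CPM from 211 UMIs in E2 and 9.48 CPM from 9 UMIs in placebo. Slc7a2 was also higher in E2 in this cluster, at 47.3 CPM from 155 UMIs in E2 and 19.0 CPM from 18 UMIs in placebo. In the others Arg1 was lower in E2, with 29.6 CPM in E2 and 122 CPM in placebo, and 13.4 CPM in E2 and 74.6 CPM in placebo. In the same order, Slc7a2 had 1.71 CPM in E2 and 2.87 CPM in placebo, and 2.33 CPM in E2 and 2.57 CPM in placebo.

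The Mmp12 group made up 2.89% of the class in E2 and 7.06% in placebo, and the Pf4 group 22.8% in E2 and 11.5% in placebo. With the placebo mix of these groups given to both libraries, a comparison added after seeing the data, the log2 ratio of Arg1 was -2.67, against -2.85 as measured. That of Slc7a2 was -0.84 under the common mix, against -1.41 as measured. The common mix covers these groups only. The Ly6c2 group held 61.6% of the Arg1 UMIs of the E2 class and 55.0% of those of the placebo class, which are 1302 and 3164 UMIs. The clusters named monocyte held 68 and 16 Arg1 UMIs in E2 and 63 and 6 in placebo. Most Arg1 UMIs of the Ly6c2 group therefore lay outside those clusters. In the cluster rich in Arg1 (195 of 5499 E2 and 250 of 3393 placebo cells), Arg1 had 646 CPM in E2 and 2153 CPM in placebo. This cluster held 1555 of the 2314 Arg1 UMIs of all kept E2 cells and 5645 of the 6347 in placebo. Mmp12 had 1438 CPM in E2 and 1154 CPM in placebo in this cluster. Ass1 had 141 CPM in E2 and 213 CPM in placebo there. How much of the differences goes with the cell mix was not tested. Slc7a2 was concentrated in the Mmp12 group, where it had 175 CPM in E2 and 294 CPM in placebo, 1.68-fold lower (1.39 to 2.03), and this group held 36.0% of the Slc7a2 UMIs of the E2 class and 55.3% of those of the placebo class.

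**Figure D3:**
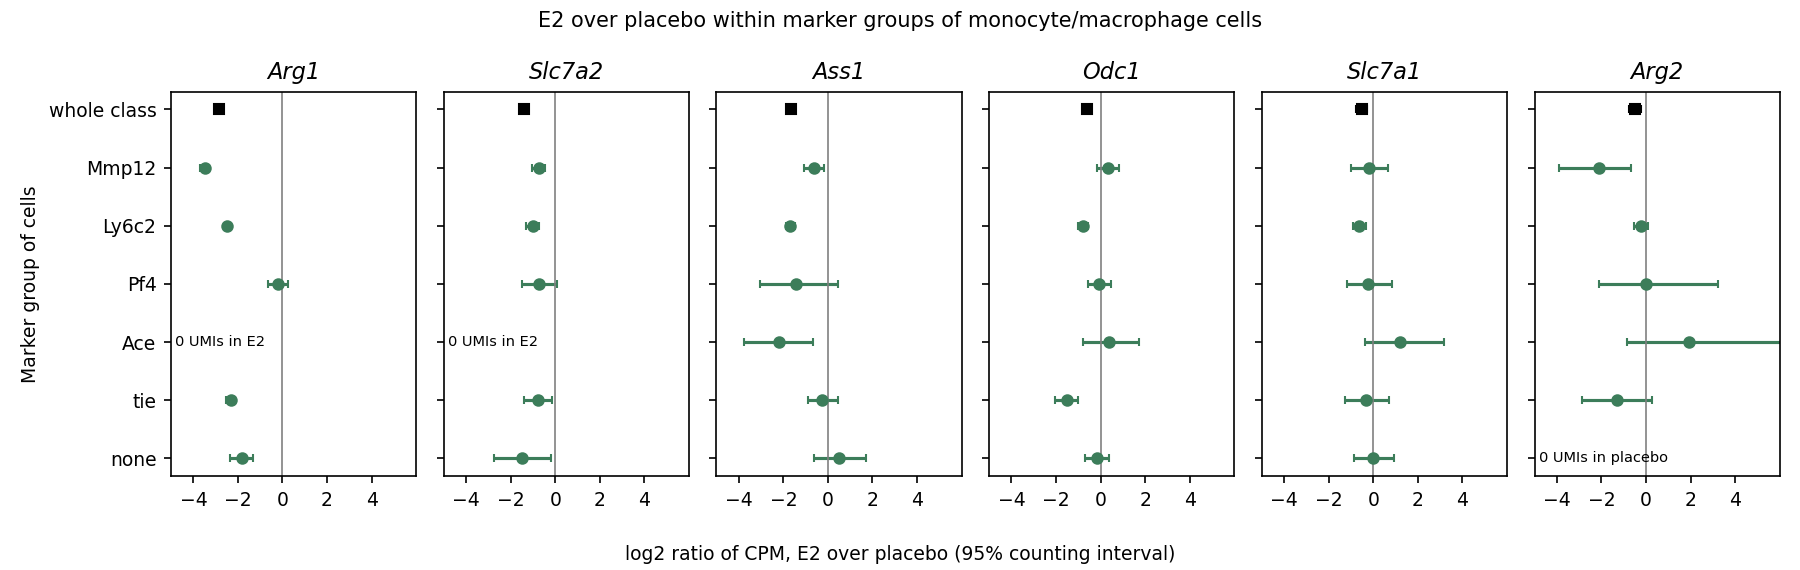
log2 ratio of CPM, E2 over placebo (x), for 6 of the genes in the whole class (square) and in its marker groups (circles, rows), with 95% counting intervals. Arg1 lies left of 0 in all groups with UMIs in both libraries and nearest to 0 in the Pf4 group, where the ratio was 0.86. Rows named tie and none hold cells of several groups or of none.

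Slc7a2 and Ass1 were found more often in the cells that held Arg1, though many cells with either gene had no Arg1 UMI. Among thinned E2 cells, Slc7a2 had a UMI in 18 of 128 cells with Arg1 (14.1%) and in 32 of 2127 cells without it (1.5%). Among thinned placebo cells, the numbers were 34 of 165 (20.6%) and 14 of 745 (1.88%). Slc7a2 was thus more frequent in cells with Arg1 in each library. Ass1 showed the same arrangement, at 18% of E2 cells with Arg1 and 2.44% without, and at 27.3% of placebo cells with Arg1 and 5.64% without. Odc1, which acts on the ornithine that arginase makes, was found in 6.25% of E2 cells with Arg1 and 6.16% without, and in 13.3% of placebo cells with Arg1 and 5.91% without. The placebo intervals for Odc1, 8.55% to 19.5% and 4.32% to 7.85%, did not overlap. The difference between the libraries was not tested.

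**Figure D4:**
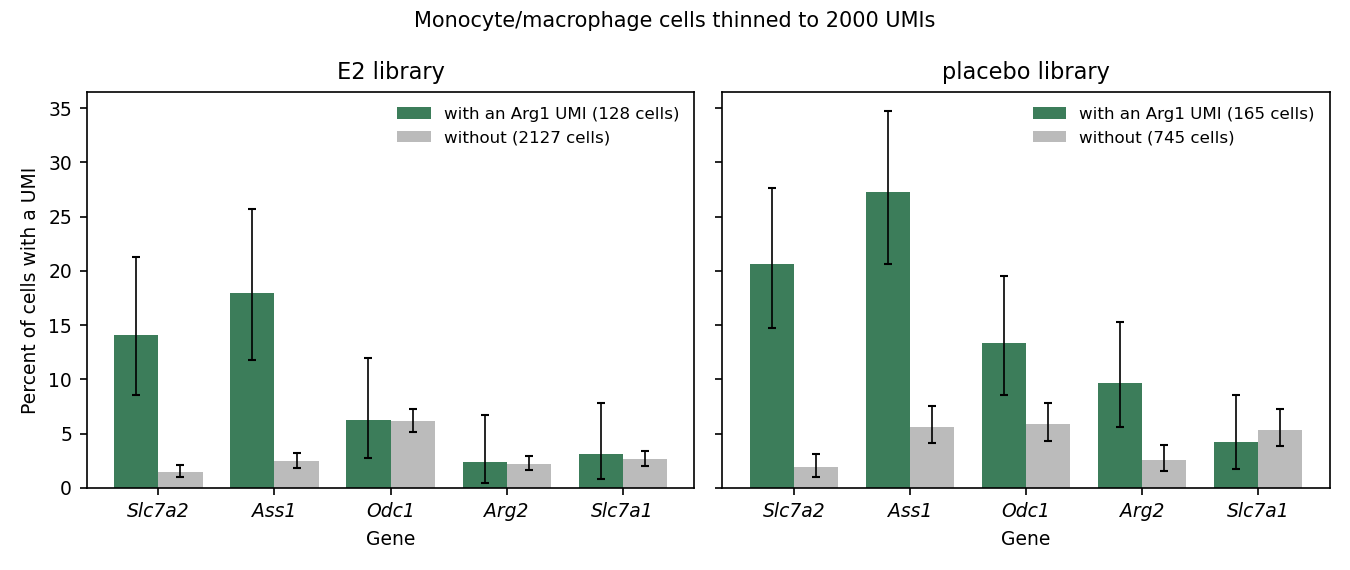
Percent of thinned monocyte/macrophage cells with a UMI of 5 of the genes (y), for cells with an Arg1 UMI (green) and without (grey), E2 library left and placebo library right, with exact binomial 95% intervals. Slc7a2 and Ass1 are higher in cells with Arg1 in both panels, and Odc1 is level in E2 (6.25% and 6.16%) but not in placebo (13.3% and 5.91%).

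Over 11 gates in 2 libraries (22 points that share their libraries, so given as a description), Slc7a2 was also the gene most like Arg1 among 10826 genes, with r = 0.92. Next came Edn1, which encodes endothelin 1, with r = 0.91, then the collagenase gene Mmp13, Zfyve28 and the chemokine gene Ccl24. Tmem119 and Arg1 came first for Slc7a2. Mmp13 and Ccl24 are markers of the Mmp12 group, and likeness of this kind follows the gate in which a gene is highest. The genes most like Arg2 were Slfn4, Rhov, Acta2, Kcnj2 and S100a8, of which S100a8 was a neutrophil gate marker.

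Nos2, the other enzyme that competes for arginine, was nearly undetected. All kept cells held 32 UMIs in E2 and 25 in placebo. In monocytes and macrophages there were 11 UMIs in 4 E2 cells and 24 UMIs in 7 placebo cells, and 3 of these 4 E2 cells and 6 of these 7 placebo cells also carried Arg1. Neutrophils held 20 Nos2 UMIs in 15 of 536 E2 cells and 0 UMIs in 251 placebo cells, where a count of 0 allows up to 4.95 CPM. In E2 neutrophils the level was 11.2 CPM (6.87 to 17.4). Of the 3 members measured in neutrophils, Nos2 was called higher and 0 were called lower, where 9.04% of 5783 genes were called higher and 13% lower. Nos2 met the limit of 20 UMIs exactly, and only through the E2 library, so its call adds nothing to these counts. T, NK and B cells and the 4 dendritic gates had 0 Nos2 UMIs in both libraries.

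Arg2 was highest in neutrophils, short-lived phagocytes of the blood. It had 455 CPM in E2 (424 to 487) and 528 CPM in placebo (472 to 589), a ratio of 0.86 (0.76 to 0.98). Thinned cells with an Arg2 UMI were 52.8% of E2 and 56.3% of placebo neutrophils, and the intervals, 48.3% to 57.3% and 48.8% to 63.6%, overlapped. Neutrophils held 71.5% of all Arg2 UMIs in E2 and 63% in placebo. Arg1, by contrast, had 0 UMIs in 536 E2 neutrophils and 2 UMIs in 1 of 251 placebo neutrophils. The 2 arginases were thus read mainly from different classes of cells in these libraries. Among thinned E2 monocytes and macrophages, Arg2 was found in 2.34% of cells with Arg1 and 2.21% without. Among those of placebo, it was found in 9.70% with Arg1 (5.64% to 15.3%) and 2.55% without (1.54% to 3.95%).

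Group 2 innate lymphoid cells (ILC2) are tissue lymphocytes without an antigen receptor that make IL-5 and IL-13. They held a second Arg1 pool, which by the marker gate was of about equal level in the libraries. Arg1 had 272 CPM in E2 (217 to 338) and 277 CPM in placebo (237 to 323), a ratio of 0.98 (0.75 to 1.28), and it was found in 22 of 46 E2 cells and 37 of 85 placebo cells. The counting interval of this ratio lies apart from that of monocytes and macrophages, 0.13 to 0.15, but neither covers the spread between cells. In the cluster named ILC2 (55 E2 and 95 placebo cells), Arg1 was lower in E2, at 254 CPM from 106 UMIs in E2 and 340 CPM from 270 UMIs in placebo. The E2 gate held fewer than 50 cells, and the gate was mixed. A UMI of Foxp3, which marks regulatory T cells, was in 13 of 46 E2 cells and 22 of 85 placebo cells, and 0 of these carried Arg1. Without them Arg1 had 304 CPM in E2 and 339 CPM in placebo. Gata3, the master factor of type 2 lymphocytes, was in 22 of the 22 Arg1 cells in E2 and 36 of the 37 in placebo, and Cd3e, part of the T cell receptor complex, was in 0 of both. Gata3 is a marker of the ILC2 gate and Cd3e of the T gate, so the gating itself favours both results. Gata3 was also in 20 of the 24 E2 and 42 of the 48 placebo cells of the gate without Arg1. Trac, another T gate marker, was in 2 of the 22 E2 and 3 of the 37 placebo Arg1 cells.

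T cells carried little Arg1. They had 9.62 CPM in E2 and 17.8 CPM in placebo, from 45 UMIs in 16 of 855 E2 cells and 100 UMIs in 17 of 1038 placebo cells. After thinning, 0.613% of E2 and 0.791% of placebo T cells had an Arg1 UMI. Cells with a Cd8a UMI held 0 of these UMIs in E2 and 51 in placebo, in 6 of 184 cells, and the other T cells had 10.9 CPM in E2 and 10.7 CPM in placebo. Il13 was found in 5 of the 16 Arg1 cells in E2 and 9 of the 17 in placebo, and in 23 of the other 839 E2 and 50 of the other 1021 placebo T cells. In mature dendritic cells, the migrating form that carries Ccr7, Arg1 had 1 UMI in E2 and 44 UMIs in placebo, and the 44 placebo UMIs came from 2 cells.

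Odc1 and Ass1 were highest in T cells, and there the libraries differed far less than in monocytes and macrophages. Odc1 had 378 CPM in E2 (361 to 397) and 433 CPM in placebo (416 to 451), a ratio of 0.87 (0.82 to 0.93). Ass1 had 209 CPM in E2 (196 to 223) and 190 CPM in placebo (179 to 202), a ratio of 1.10 (1.01 to 1.20). Slc7a1 had 50.9 CPM in E2 and 45.1 CPM in placebo T cells, a ratio of 1.13 (0.94 to 1.35). By the rule above, 0 of the 4 genes measured in T cells were called lower or higher, where 0.538% of 11525 genes were called lower and 0.599% higher. The median log2 ratio of T cell genes with at least 50 UMIs was -0.10, and with that median set to 0 the log2 ratio was -0.09 for Odc1 and 0.24 for Ass1.

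The sequence around the 5′ end is shown for Odc1, Ass1 and Slc7a1 only. The promoter source used here held no entry for Arg1, Arg2, Nos2 or Slc7a2. The RefSeq promoters (GRCm38.p6) run from 250 bases before to 50 after the start. They are at chr12:17544623-17544922 (plus strand) for Odc1, chr2:31470020-31470319 (plus strand) for Ass1 and chr5:148399855-148400154 (minus strand) for Slc7a1. Capitals mark TGACG, the core of the cyclic AMP response element, or its reverse complement in Odc1 and Slc7a1, and the E-box CACGTG in Ass1.
Odc1: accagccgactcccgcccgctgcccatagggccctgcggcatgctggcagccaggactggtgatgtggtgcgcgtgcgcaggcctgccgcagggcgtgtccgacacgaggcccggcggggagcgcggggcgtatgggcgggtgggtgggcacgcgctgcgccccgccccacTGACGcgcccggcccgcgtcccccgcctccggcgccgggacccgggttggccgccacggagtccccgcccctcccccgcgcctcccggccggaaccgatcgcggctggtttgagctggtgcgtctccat
Ass1: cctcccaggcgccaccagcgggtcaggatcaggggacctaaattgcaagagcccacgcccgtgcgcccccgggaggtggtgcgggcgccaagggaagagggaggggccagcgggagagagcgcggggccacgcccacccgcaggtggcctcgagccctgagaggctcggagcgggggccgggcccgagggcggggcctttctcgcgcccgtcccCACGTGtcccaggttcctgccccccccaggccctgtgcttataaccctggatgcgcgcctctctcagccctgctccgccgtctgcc
Slc7a1: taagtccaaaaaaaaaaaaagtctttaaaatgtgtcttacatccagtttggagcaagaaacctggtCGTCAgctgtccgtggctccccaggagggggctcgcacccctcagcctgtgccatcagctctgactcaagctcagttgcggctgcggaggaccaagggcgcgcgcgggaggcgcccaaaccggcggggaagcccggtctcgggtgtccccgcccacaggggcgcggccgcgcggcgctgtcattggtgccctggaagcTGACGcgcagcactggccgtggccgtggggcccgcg

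Both strands were searched. TGACG or its reverse complement occurs 1 time in the Odc1 window and 2 times in the Slc7a1 window, and 20.9% of 32544 promoters of the same length hold it. The Ass1 window holds 1 E-box, found in 7.17% of promoters, and that E-box contains ACGTG, the core of the hypoxia response element, on each strand. ACGTG is in 19.7% of promoters. The motifs of STAT factors (TTCNNNGAA) and C/EBP factors (TTGCNNAA) were also searched and had 0 matches in each of the windows shown. They are in 8.33% and 10.8% of promoters. The matches describe letters and show no binding. In the GENCODE M21 annotation of the same assembly the protein-coding genes span chr12:17544794-17551505 for Odc1, chr2:31470207-31520672 for Ass1, chr5:148327410-148399904 for Slc7a1, chr10:24915221-24927484 for Arg1, chr12:79130777-79156301 for Arg2, chr11:78920787-78960254 for Nos2 and chr8:40862396-40922308 for Slc7a2.

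Among T cells, Odc1 and Ass1 were higher in cells with a Foxp3 UMI than in cells without one. In cells with a Foxp3 UMI (338 E2 and 401 placebo cells), Odc1 had 460 CPM in E2 and 621 CPM in placebo, a ratio of 0.74 (0.68 to 0.80). In cells without one (517 E2 and 637 placebo cells), it had 311 CPM in E2 and 289 CPM in placebo, a ratio of 1.08 (0.98 to 1.19). The counting intervals of the 2 ratios did not overlap, though they leave out the spread between cells. A split by Il1rl1, the IL-33 receptor, gave a like pattern, with an Odc1 ratio of 0.72 (0.67 to 0.79) in cells with an Il1rl1 UMI and 1.05 (0.96 to 1.15) in cells without. With an Mki67 UMI and without one, the Odc1 ratio was 0.87 in both. Ass1 had 312 CPM in E2 and 308 CPM in placebo cells with Foxp3, and 124 CPM in E2 and 100 CPM in placebo cells without it. In cells with an Il1rl1 UMI it had 317 CPM in E2 and 287 CPM in placebo. Cells with a Cd8a UMI were lower in Odc1, at 168 CPM in E2 and 194 CPM in placebo.

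The order of levels over the other gates differed by gene. For Odc1, T cells were followed by ILC2 at 207 CPM in E2 and 244 CPM in placebo and by natural killer (NK) cells at 134 CPM in E2 and 191 CPM in placebo. The ILC2 and NK intervals overlapped in placebo, and in E2, where they ran from 159 to 264 and from 111 to 160, by a narrow margin. The 28 E2 basophils, at 141 CPM, lay between them. For Ass1, mature dendritic cells followed T cells, with 83.3 CPM in E2 and 99.1 CPM in placebo, and overlapped with ILC2 at 88.6 CPM in E2 and 93.0 CPM in placebo. NK cells, mast cells and basophils had 0 Ass1 UMIs in both libraries, which for NK cells allows up to 3.32 CPM in E2 and 8.95 CPM in placebo. Slc7a1, the widely expressed transporter, showed little order, since its intervals overlapped among T, NK, ILC2 and B cells in both libraries. Neutrophils had the lowest Slc7a1 of the gates with at least 50 cells in each library, 3.37 CPM in E2 and 9.90 CPM in placebo.

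In the type 2 conventional dendritic cells (cDC2), which present antigen to helper T cells, 3 genes were lower in E2. Odc1 had 40.3 CPM in E2 and 82.2 CPM in placebo, a ratio of 0.49 (0.38 to 0.63). Ass1 had 43.2 CPM in E2 and 78.6 CPM in placebo, a ratio of 0.55 (0.43 to 0.71), and Slc7a1 had 23.6 CPM in E2 and 42.1 CPM in placebo, a ratio of 0.56 (0.40 to 0.79). All 3 were called lower and 0 members higher, where 3.35% of 9614 genes were called lower and 1.56% higher, and the median gene with at least 50 UMIs lay at -0.11 on the log2 scale. After thinning to 2000 UMIs the log2 ratio of Ass1 was 0.01, against -0.86 as measured, in these 268 E2 and 89 placebo cells. That of Odc1 was -0.45 after thinning, against -1.03, and that of Slc7a1 was -1.71, against -0.84. In cDC1, Odc1 had 89.5 CPM in E2 and 122 CPM in placebo and Ass1 had 42.8 CPM in E2 and 61.9 CPM in placebo.

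Summed over all kept cells, Odc1 had 84.6 CPM in E2 and 167 CPM in placebo, a ratio of 0.51 (0.48 to 0.53), which is lower than in either T cells or monocytes and macrophages. T cells, which held 42.8% of the Odc1 UMIs of the E2 library and 62.0% of those of the placebo library, were 15.5% of E2 cells and 30.6% of placebo cells. Summed Ass1 likewise had 45.4 CPM in E2 and 94.4 CPM in placebo. Summed Arg2 had 23.2 CPM in E2 and 21.7 CPM in placebo, a ratio of 1.07 (0.96 to 1.19).

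The rest of the arginine pathway stayed close to the median gene in monocytes and macrophages. Over 6 lists of uptake, urea cycle, nitric oxide, polyamine, proline and creatine genes, 38 of 47 genes were measured, with a median log2 value of -0.03. Of these, 1 was called lower and 1 higher, where 1.23% of all genes tested were called lower and 0.828% higher. In the polyamine list (1 lower and 0 higher of 14), the gene called was Smox, spermine oxidase, with 47.7 CPM in E2 and 97.9 CPM in placebo, 2.05-fold lower (1.88 to 2.24). Azin1, which protects ornithine decarboxylase from its inhibitor, had 68.8 CPM in E2 and 99.8 CPM in placebo, short of the 1.5-fold limit. In the creatine list (0 lower and 1 higher of 5), Ckb, brain-type creatine kinase, had 132 CPM in E2 and 72.9 CPM in placebo, and Gatm, which makes the creatine precursor from arginine, had 99.1 CPM in E2 and 152 CPM in placebo, the last of these short of the limit.

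Of the other 4 lists, none had a call in the nitric oxide and tetrahydrobiopterin list (0 of 7, median 0.04), the uptake list (0 of 5, median -0.17), the urea cycle list (0 of 2) or the proline list (0 of 5). Gch1, which makes the cofactor of nitric oxide synthases, had 68.7 CPM in E2 and 82.1 CPM in placebo. Slc3a2, the heavy chain of several amino acid exchangers, had 201 CPM in E2 and 228 CPM in placebo. Asl, which completes arginine synthesis after Ass1, had 31.1 CPM in E2 and 37.4 CPM in placebo. The next enzyme of the same route therefore differed 1.20-fold (1.06 to 1.37) where Ass1 differed 3.16-fold.

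Of 12 genes known to induce Arg1, 1 was called lower and 0 higher, where 1.23% of all genes were called lower. Of the 12, 9 lay below 0, with a median log2 value of -0.22. Hif1a, the oxygen-sensing transcription factor subunit, had 174 CPM in E2 and 281 CPM in placebo, 1.62-fold lower (1.54 to 1.70). Csf2rb, a receptor chain for GM-CSF, had 232 CPM in E2 and 339 CPM in placebo. Of 10 inducers of Nos2, 0 were called, with a median of -0.36, and Irf1, an interferon-induced factor, had 81.5 CPM in E2 and 122 CPM in placebo.

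Oxygen-regulated genes were lower in E2 in the same class, with 6 of 11 called lower, 0 higher and a median log2 value of -0.73. Of all genes tested, 1.23% were called lower and 0.828% higher. Hilpda, a lipid droplet protein, had 32.3 CPM in E2 and 82.7 CPM in placebo, Egln3, a prolyl hydroxylase, had 5.71 CPM in E2 and 23.9 CPM in placebo, and Ero1l, an oxidase of the endoplasmic reticulum, had 34.1 CPM in E2 and 76.7 CPM in placebo. Vegfa, in the same list, was not called and had 173 CPM in E2 and 133 CPM in placebo. Summed over the list, thinned cells with Arg1 had 1730 CPM in E2 and 3309 CPM in placebo, and thinned cells without Arg1 had 906 CPM in E2 and 926 CPM in placebo. The part of these genes in the Arg1 difference was not tested.

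**Figure D5:**
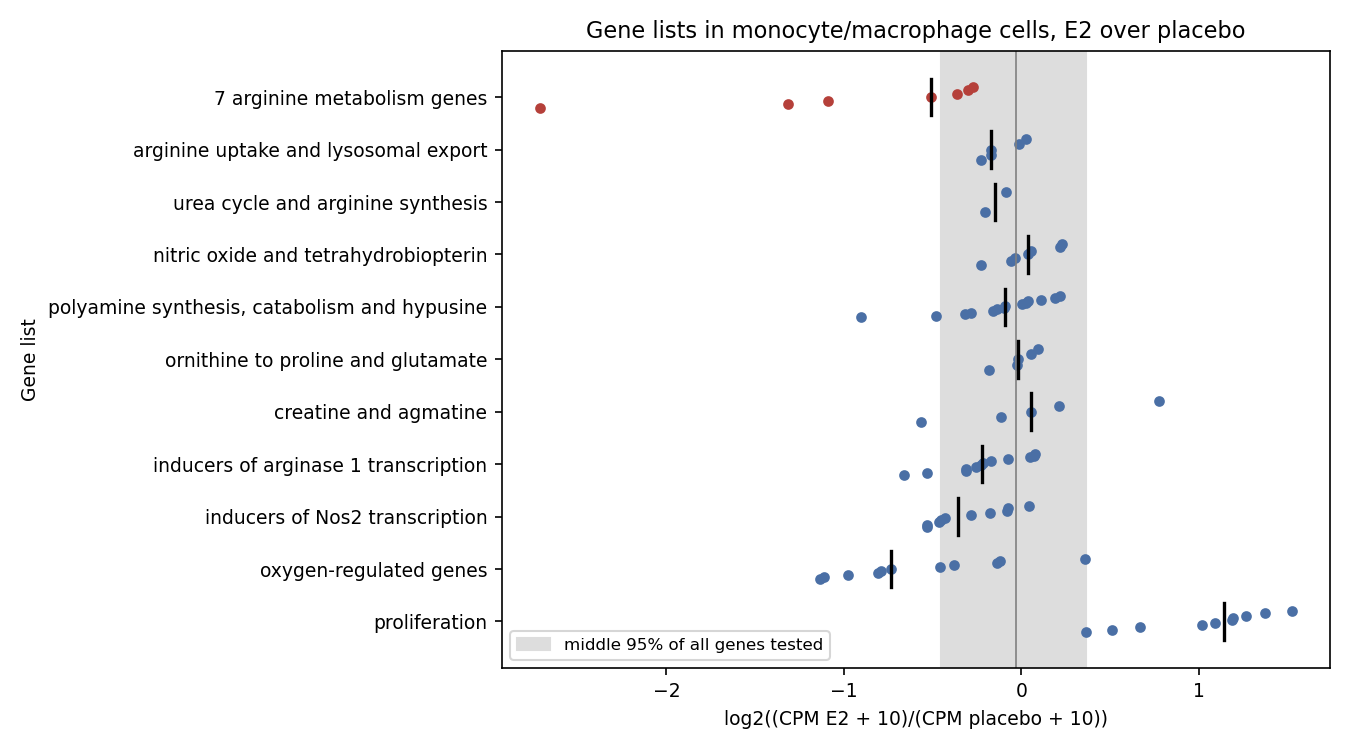
log2((CPM E2 + 10)/(CPM placebo + 10)) of each measured gene (points) of the 7 arginine metabolism genes and 10 gene lists in monocytes and macrophages, with list medians (black bars) and the middle 95% of all genes tested (grey). Arg1, Ass1, Slc7a2 and Odc1 lie left of the grey band, as do the 6 oxygen-regulated genes called lower, and the proliferation list lies to the right with a median of 1.14.

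Proliferation genes were higher in E2 monocytes and macrophages, with 8 of 10 called higher, where 0.828% of all 13157 genes tested were called higher. Stmn1, a tubulin-binding protein, had 105 CPM in E2 and 29.8 CPM in placebo. Cells without an Mki67 UMI, a gene of dividing cells, had 97.7 CPM of Arg1 in E2 and 654 CPM in placebo, 6.70-fold lower (6.37 to 7.05). In cells with an Mki67 UMI (230 E2 and 71 placebo cells), Arg1 had 19.9 CPM in E2 and 366 CPM in placebo.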

How the data were processed

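The deposited values are raw UMI counts per gene and barcode, made by the authors with Cell Ranger 3.1.0 on mm10, per the submitters' processing notes. No source used here says how barcodes were chosen. Barcodes with under 200 genes were removed (26 in E2, 15 in placebo). Scrublet (scanpy 1.11.5) marked 98 E2 and 2 placebo barcodes by its own threshold, so a fixed share of 0.8% per 1000 barcodes was taken out by score (266 in E2, 97 in placebo). The 37 mitochondrially encoded features held 0 UMIs, so no mitochondrial filter could be applied.

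A cell took the class whose 8 markers it held the largest share of, with at least 3 found. Gates rest on markers alone, and 7 of 8 cDC2 markers and 8 of 8 markers of the other gates were at least 2-fold higher in their gate. Marker groups inside the monocyte/macrophage class needed 2 of 6 markers. UMIs were summed per gate and library and scaled to CPM. Ratios carry conditional-binomial, levels Poisson and shares Clopper-Pearson 95% intervals, all exact. The limit for a count of 0 is 3 UMIs. The ratio interval was tested on simulated counts. From each list, the 3 genes with the largest absolute log2 value could be named, and the 5 genes of highest correlation for each member. Vegfa and the Foxp3, Cd8a, Mki67, Gata3, Cd3e, Trac, Il1rl1 and Il13 splits were chosen after values were seen. Slc66a1, Ero1a and Pclaf were read under older symbols. Alternatives changed the gates, doublets, depth, scaling and pseudocount. The genes, lists and comparisons were chosen with earlier results of these data known. Python 3.11.15, numpy 2.4.6, scipy 1.17.1, pandas 2.3.3, leidenalg 0.10.2 and matplotlib 3.10.9 were used.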

Additional observations from a re-analysis of the deposited data

Results flagged for a closer look

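Fibroblasts are outside the labelled CD45+ sort, and the comparisons by treatment did not use them. In the cells that passed the fibroblast gate, Slc7a2 had 42.3 CPM in E2 (30.6 to 57.0), from 43 UMIs in 14 of 101 cells, and 3.42 CPM in placebo (0.09 to 19.0), from 1 UMI in 23 cells. The E2 level is above the E2 level of monocytes and macrophages, 21.2 CPM. With 23 placebo cells no comparison between the libraries was made.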

How the results depend on the processing

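For monocytes and macrophages, 76 alternative values were computed over the 7 genes, of which 74 had the sign of the reported log2 ratio. Arg1 ran from -2.90 to -0.97, Ass1 from -1.69 to -0.49, Odc1 from -0.68 to -0.24, Slc7a1 from -0.90 to -0.36 and Nos2 from -3.63 to -0.27. With classes taken from Leiden clusters, each named from 1 marker list, Arg1 was -0.97, Ass1 -0.49 and Odc1 -0.24, and the signs of Arg2 (0.20) and Slc7a2 (0.83) turned. Clusters 3 and 5 received no name in that alternative, and cluster 5 (195 E2 and 250 placebo cells) held Arg1 at 646 CPM in E2 and 2153 CPM in placebo. With the monocyte and macrophage lists pooled for naming, added after seeing the data, the values were -2.79 for Arg1, -1.54 for Slc7a2 and -1.54 for Ass1. With 10 CPM added the values were -2.71 for Arg1, -1.09 for Slc7a2, -1.32 for Ass1 and -0.27 for Nos2. Thinning gave -0.81 for Arg2 and -0.90 for Slc7a1, and removing 3 times as many doublets gave -0.41 for Odc1. With the median gene set to 0, Arg1 was -2.78, and the mean over cells gave -1.68 for Slc7a2. The common mix of marker groups gave -2.67 for Arg1, -0.84 for Slc7a2 and -1.31 for Ass1. Of 287 alternative values of other results, 236 stayed within their counting interval (for counts of genes, within 1.5 times), 50 moved beyond it and 1 turned, Ass1 in cDC2 under thinning (0.0054). In T cells Arg1 was 0.01 with classes from clusters, against -0.89 as reported. No paired analysis was possible because each group holds 1 library and the labels give no replicate numbers. Depth limits Nos2 most, with 32 UMIs in E2 and 25 in placebo cells.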
